A study of Ulmus minor with 54 samples.

Results

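Leaves of field elm (Ulmus minor) that had carried simulated beetle eggs before larvae fed on them were set against leaves that larvae fed on without earlier eggs, as 1 effect over 3 harvest hours. The comparison used 17 of the 54 RNA-seq libraries of the series, chosen by their sample titles: 9 libraries of eggs followed by larvae (called PT, 3 each at 1, 6 and 24 h after larvae were placed) and 8 libraries of larvae alone (called CT, 3 at 1 h, 3 at 6 h and 2 at 24 h). The series is a factorial of simulated eggs and larval feeding on wild-type trees of 15 to 19 weeks, grown in a greenhouse from a clonal shoot culture. An egg treatment meant that a strip of epidermis of 1.5 cm by 1 mm was scraped from the leaf and oviduct secretion of elm leaf beetle females was put on it. Leaves without eggs were not scraped, so wound and secretion cannot be told apart in any comparison of PT with CT. In PT leaves 5 newly hatched larvae were placed on the leaf 7 days after the eggs, and CT leaves received 5 larvae with no earlier treatment. Unfed leaves of the same hours, with eggs (PC) or without any treatment (CC), and leaves sampled soon after eggs (P) or left untreated beside them (C), are used only to choose transcripts or to stand beside PT and CT. About 100 mg of leaf around the treated site gave the RNA of 1 library.

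Of the 237477 assembled transcripts in the count table, 71158 had a median of at least 0.5 CPM (counts scaled to a common library total) over the 18 untreated libraries of C and CC leaves, and these are called leaf-expressed. All of them passed the filter on low counts, and they are described first. The identifiers are numbers of contigs and scaffolds with no gene names, so no function can be given to any of them, and the leaf label could not be checked against marker genes of leaf, beetle or microbe.

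Plants can react to insect eggs before any larva hatches, and a leaf that has met eggs can answer later feeding faster or more strongly, which is called priming. Feeding itself is known to start wound signalling through jasmonic acid, to raise defence proteins and secondary compounds, and to lower photosynthetic functions. The elm leaf beetle is a specialist on elms, and elm leaves are known to respond to its egg laying, among other ways by releasing volatiles that attract a wasp that parasitises the eggs.

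The fed libraries held 37022208 to 86534940 counted reads in PT and 46900718 to 81868967 in CT. Leaf-expressed transcripts took 97.4 ± 0.624% of the reads in PT (SD, n = 9) and 97.6 ± 0.626% in CT (SD, n = 8). Transcripts with a median CPM of 0 in untreated leaves, 30350 of them, took 0.235 ± 0.192% in PT and 0.211 ± 0.256% in CT. The 10 most abundant transcripts of each library took 6.82 to 58.5% of its reads in PT (median 27%) and 9.01 to 51.5% in CT (median 24.3%). None of these 4 measures differed between PT and CT in a two-sided exact permutation test within hours over 4000 arrangements (p = 0.617 for the number of reads, 0.56 for the leaf-expressed share, 0.893 for the share of transcripts silent in untreated leaves and 0.737 for the 10 most abundant, each 0.893 after Benjamini-Hochberg adjustment over the 4). A further CT library, replicate 1 at 24 h, stood apart with 14667334 reads, 80.3% of them in 10 transcripts, and was left out. The labels call the 3 libraries of a group triplicates without saying whether they came from separate trees, so the p-values measure the spread between these libraries, which may be technical.

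**Figure D1:**
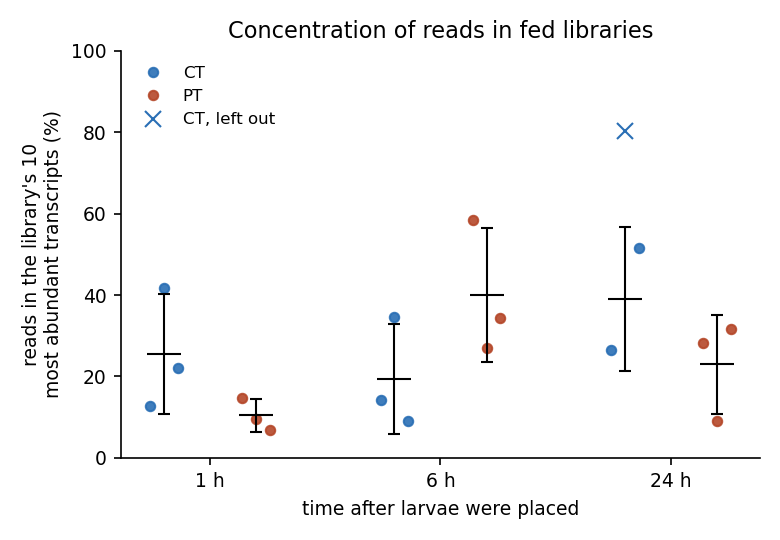
Share of reads (percent) held by the 10 most abundant transcripts of each fed library at 1, 6 and 24 h, with CT in blue and PT in red; points are libraries, and the bar and whiskers are the mean and SD of the libraries used. The CT library left out is drawn as a cross at 80.3%, above all 17 libraries used, which lie between 6.82 and 58.5%.

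With the 3 hours pooled, no transcript passed the test between PT and CT leaves. The test was edgeR's quasi-likelihood test with hour as a block, and a transcript counted as called where its p was 0.05 or less after Benjamini-Hochberg adjustment. It called 0 of the 71158 leaf-expressed transcripts (0%) and 0 of all 146930 transcripts tested (0%), and the lowest adjusted p was 1. An unadjusted p of 0.05 or less was reached by 2539 leaf-expressed transcripts (3.57%) and by 5485 of all tested (3.73%). Of the 2539, 892 were higher and 1647 lower in PT, and the split was 1349 and 1302 when only leaf-expressed transcripts entered the scaling and the test. With limma voom 0 were called as well, and DESeq2 called 2, C445555 and C270029, neither of them leaf-expressed. C445555 had 5390 of its 5454 reads (98.8%) in the PT library of replicate 2 at 6 h, and C270029 had 1496 of its 1526 (98.0%) in the same library. The measurements come from pieces of whole leaf, in which fewer cells of a type and less RNA per cell cannot be told apart.

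The spread between these libraries, which may be technical, bounds the mean difference over the hours in most leaf-expressed transcripts. The median log2 fold change of PT against CT was -0.021, and the middle 50% of transcripts lay between -0.13 and 0.09. The 95% interval of a transcript's log2 fold change reached 0.36 to either side of its estimate in the median. That interval lay wholly within a 2-fold difference for 95.6% of the 71096 leaf-expressed transcripts for which it could be computed, and wholly within a 1.5-fold difference for 68.8%. The estimate itself passed 2-fold for 123 of 71158 transcripts (0.173%). Single hours were bounded less tightly, with 72.3, 67.9 and 57.8% of intervals within 2-fold at 1, 6 and 24 h.

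With the hours pooled, the bound became tighter with abundance. Among the 22858 transcripts with a median of 0.5 to 1 CPM in untreated leaves, the interval reached 0.43 on the log2 scale to either side and lay within 1.5-fold for 49.4%. Among 37302 transcripts of 1 to 10 CPM it reached 0.34 and lay within 1.5-fold for 75%. Among 9705 transcripts of 10 to 100 CPM it reached 0.25, and 88.5% lay within 1.5-fold. The 1293 transcripts of 100 CPM or more had the same 0.25, with 87.1% within 1.5-fold and 95.4% within 2-fold. Median log2 fold changes over these 4 levels were -0.004, -0.022, -0.034 and -0.042.

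Feeding, measured with the same fed libraries set against unfed ones, gives the scale. That comparison used 35 libraries, and its interval reached 0.25 to either side in the median, against 0.36 for PT against CT. The numbers called thus do not come from equal power. Taken as the mean of CT against CC and PT against PC over the 3 hours, feeding changed 25594 of the 71158 leaf-expressed transcripts (36%) at the same threshold, of which 9880 rose and 15714 fell. Among the fed libraries alone, 27287 of them (38.3%) differed between the 3 harvest hours. In these libraries the hour is also the time since larvae were placed, so harvest time and feeding time cannot be told apart. Feeding moved 2213 leaf-expressed transcripts past 2-fold (3.11%), against the 123 of PT against CT. In unfed leaves the same comparison of eggs with no eggs, PC against CC, called 0 leaf-expressed transcripts (0%) and 0 of all 156137 tested (0%), with 6005 at an unadjusted p of 0.05 or less and 0 by limma voom. DESeq2 called 146 there, of which 2 were leaf-expressed.

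**Figure D2:**
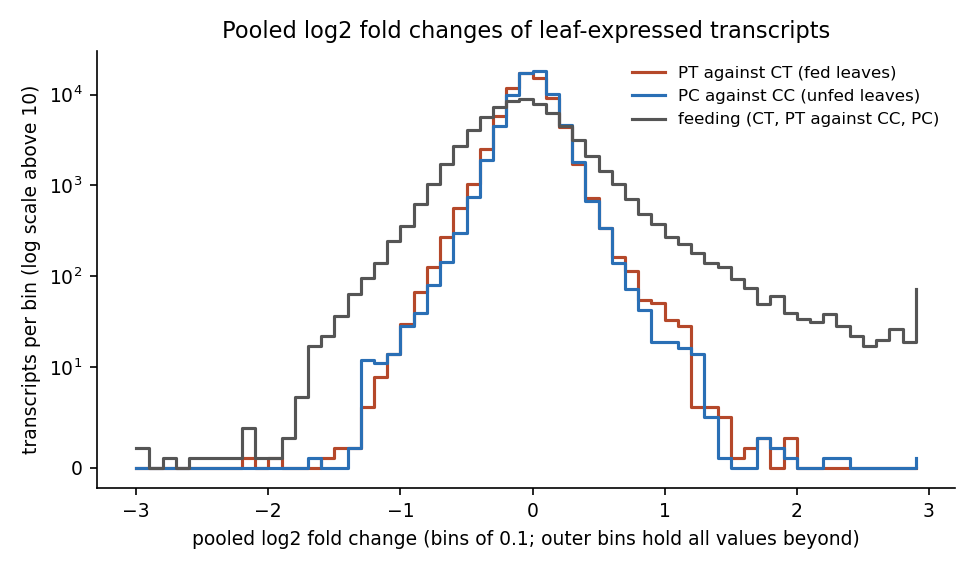
Number of leaf-expressed transcripts (log scale above 10) in bins of 0.1 of the log2 fold change pooled over hours, for PT against CT (red), PC against CC (blue) and feeding (grey). The 2 curves of eggs are narrow and lie over each other, while feeding spreads past 2-fold (a log2 fold change of 1 or -1) for 2213 transcripts.

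The fed libraries grouped by hour. Over the leaf-expressed transcripts, hour took a median of 35.5% of the variance of log2 CPM with 2 degrees of freedom, the PT and CT labels took 1.88% with 1, their combination with hour took 6.0% with 2, and 49.1% lay between libraries of the same group with 11. Components 1 and 2 held 32.8% and 21.6% of the variance and set the hours apart. PT and CT libraries overlapped on both components at 1 and 6 h. At 24 h they overlapped on component 1, while on component 2 the 3 PT libraries lay at 34.2 to 54.6 and both CT libraries lower, at 18.5 and 27.8. Spearman's rank correlation of log2 CPM was 0.93 in the median over 24 pairs of a PT and a CT library of the same hour and 0.923 over 16 pairs of the same group, against 0.865 over 48 pairs of the same treatment at different hours. The median SD of log2 CPM between libraries of 1 group was 0.33, 0.28 and 0.21 in CT at 1, 6 and 24 h and 0.28, 0.29 and 0.25 in PT.

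**Figure D3:**
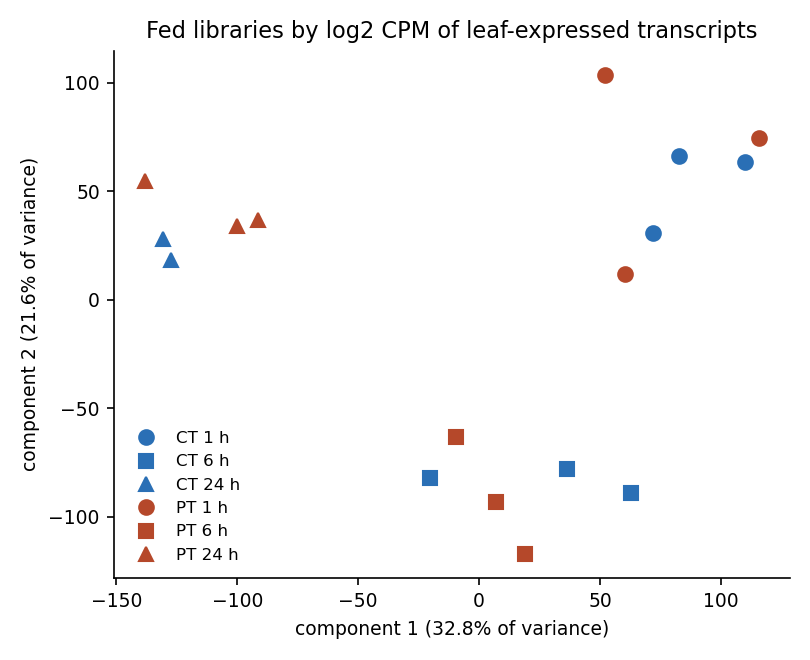
Principal components 1 and 2 of log2 CPM over leaf-expressed transcripts for the 17 fed libraries; colour gives the treatment (CT blue, PT red) and shape the hour. The hours form 3 separate groups; PT and CT libraries overlap on both components at 1 and 6 h, and at 24 h the PT libraries lie above both CT libraries on component 2.

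The 4 leaf-expressed transcripts with the smallest p, 2 in each direction among those with a mean log2 CPM of 1 or more, follow with every library, and none passed the test. C588985 was one of the 2 higher ones, and its PT and CT libraries did not overlap at any hour. Its level was 24.3, 24.6 and 21.3 CPM in CT and 30, 29.3 and 27.2 CPM in PT at 1 h. At 6 h it was 24.4, 26.2 and 29.8 CPM in CT against 30.3, 34.8 and 31.2 CPM in PT, and at 24 h it was 21.2 and 19.5 CPM in CT against 24.6, 27.2 and 22.9 CPM in PT. The gap at 6 h was only that between 29.8 and 30.3 CPM. The pooled log2 fold change was 0.28 ± 0.08 (SE; edgeR, unadjusted p = 0.00247, adjusted p = 1), with an interval from 0.11 to 0.45. C588985 fell with feeding, by a log2 fold change of -0.37 ± 0.05 (edgeR, adjusted p = 9.51e-06), and differed between PC and CC by -0.02 ± 0.08 on the log2 scale. On the scale of all fed and unfed libraries, its unfed libraries lay between 27 and 43.9 CPM.

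C173295 had the smallest p of the higher ones. It stood at 2.64, 2.98 and 2.16 CPM in CT and 3.12, 3.53 and 2.78 CPM in PT at 1 h, where the groups overlapped. At 6 h all its libraries were lower, at 0.667, 0.816 and 0.776 CPM in CT against 1.04, 1.33 and 0.958 CPM in PT, and at 24 h they stood at 2.14 and 1.61 CPM in CT against 3.22, 2.27 and 3.02 CPM in PT, without overlap at either hour. Its pooled log2 fold change was 0.46 ± 0.13 (SE; edgeR, unadjusted p = 0.00184, adjusted p = 1). Its change with hour passed the test at an edgeR adjusted p of 1.31e-06.

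scaffold13894 had the smallest p of the lower ones. At 1 h it stood at 8.37, 11.3 and 9.43 CPM in CT against 4.36, 4.72 and 3.24 CPM in PT. At 6 h CT libraries held 6.91, 9.18 and 6.41 CPM, and PT libraries held 3.41, 8.28 and 4.83 CPM, so that 1 PT library lay among the CT libraries. At 24 h CT stood at 4.82 and 4.52 CPM and PT at 2.78, 3.75 and 3.28 CPM. The pooled log2 fold change was -0.75 ± 0.18 (SE; edgeR, unadjusted p = 0.000439, adjusted p = 1), with an interval from -1.12 to -0.38. On the scale of all fed and unfed libraries, scaffold13894 ranged from 3.26 to 14.7 CPM over the CC libraries, and PC against CC differed by 0.20 ± 0.24 on the log2 scale.

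scaffold23491 was the other lower transcript. CT libraries held 107, 111 and 95.2 CPM and PT libraries 67.1, 61.0 and 75.6 CPM at 1 h. At 6 h the groups overlapped, with 132, 92.0 and 86.5 CPM in CT and 101, 74.2 and 96.2 CPM in PT. At 24 h CT stood at 73.2 and 66.3 CPM and PT at 52.9, 45.7 and 43.4 CPM. Its pooled log2 fold change was -0.45 ± 0.11 (SE; edgeR, unadjusted p = 0.000644, adjusted p = 1), against 0.18 ± 0.12 for PC against CC, whose interval ran from -0.06 to 0.42. The log2 fold change of scaffold23491 with feeding was -0.06 ± 0.08.

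**Figure D4:**
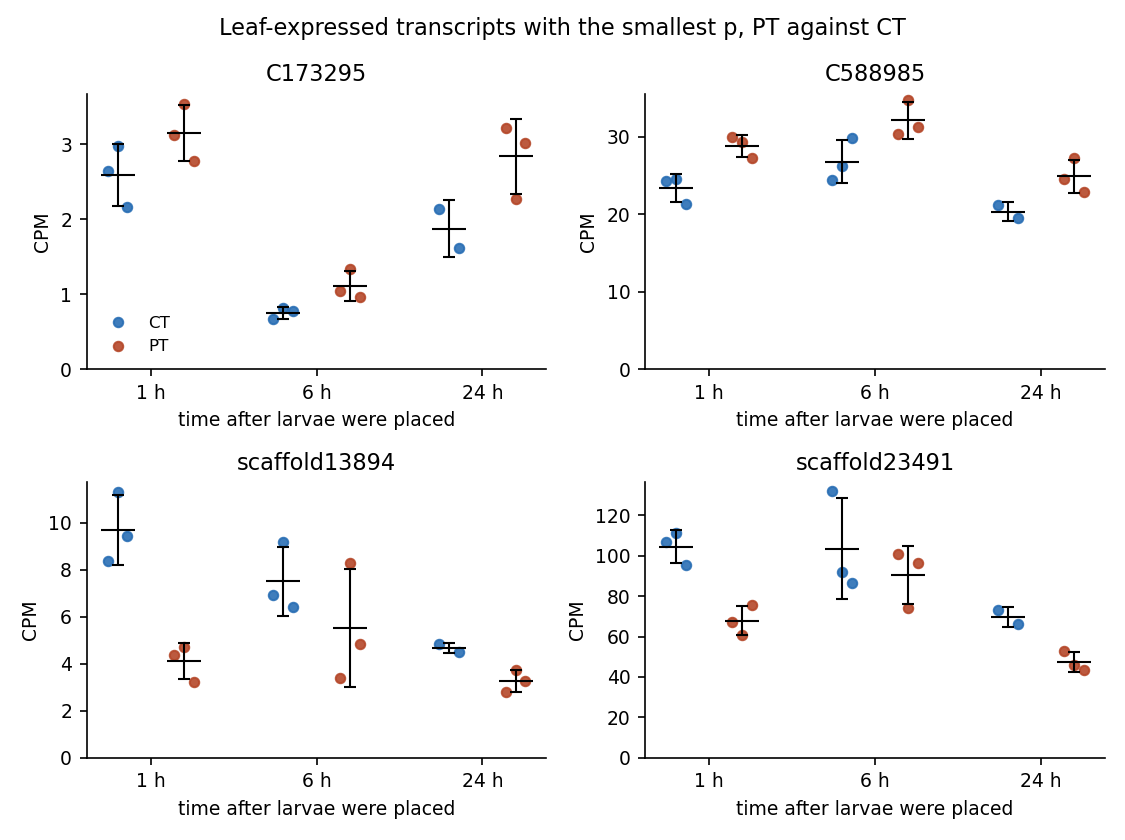
Level in CPM (linear axes from 0, TMM scaling over the fed libraries) of the 4 leaf-expressed transcripts with the smallest p in PT against CT, at 1, 6 and 24 h; points are libraries of CT (blue) and PT (red), bars and whiskers the mean and SD. C588985 shows no overlap at any hour, from 21.3 to 24.6 CPM in CT against 27.2 to 30 CPM in PT at 1 h, while scaffold23491 overlaps at 6 h.

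Of the 71158 leaf-expressed transcripts, 8 were higher and 13 lower in every PT library than in every CT library of the same hour at all 3 hours (0.0295%). Over all 146930 transcripts tested the numbers were 25 higher and 29 lower (0.0368%). At single hours, 2000 of the 71158 leaf-expressed transcripts were higher and 2986 lower without overlap at 1 h (7.01% in either direction), 3047 and 4948 at 6 h (11.2%), and 8122 and 7831 at 24 h (22.4%), where CT had only 2 libraries. The numbers over all 146930 transcripts were 5819 and 5663 at 1 h (7.81%), 7044 and 9408 at 6 h (11.2%), and 16104 and 15576 at 24 h (21.6%). With so few libraries per group, some transcripts separate by random order alone. The counts were not tested against that.

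Among the 75772 transcripts tested that are not leaf-expressed, 0 were called, and 2946 reached an unadjusted p of 0.05 or less (3.89%). Their intervals were wider, 0.69 to either side in the median, and lay within 2-fold for 56.7%. C304669, the higher one with the smallest p, stood at 0 to 0.103 CPM in CT (median 0.0552) and 0.0899 to 0.46 CPM in PT (median 0.178), with 1 CT library at 0. Its pooled log2 fold change was 1.96 ± 0.41 (SE; edgeR, unadjusted p = 0.000119, adjusted p = 1). C539633, the lower one, stood at 0.0869 to 0.272 CPM in CT (median 0.233) and 0 to 0.143 CPM in PT (median 0.0571), at -1.79 ± 0.40 (SE; edgeR, unadjusted p = 0.000268, adjusted p = 1). For both transcripts the PT and CT libraries did not overlap within any of the 3 hours, while the ranges over all hours did. C304669 had a highest CT level of 0.0744, 0.103 and 0.0701 CPM and a lowest PT level of 0.0899, 0.255 and 0.123 CPM at 1, 6 and 24 h. C539633 had a lowest CT level of 0.0869, 0.222 and 0.245 CPM and a highest PT level of 0.0683, 0.143 and 0.0571 CPM. Among the 75772 transcripts that are not leaf-expressed, 17 were higher and 16 lower in this way at every hour. Over all 146930 tested the numbers were 25 and 29 (0.0368%).

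Each hour taken alone gave no call either. At 1 h edgeR called 0 leaf-expressed transcripts (0%) and 0 of all tested (0%), with 6884 of all tested at an unadjusted p of 0.05 or less and a lowest adjusted p of 1. At 6 h it called 0 and 0 (0% and 0%), with 7928 and a lowest adjusted p of 0.887, and at 24 h 0 and 0 (0% and 0%), with 5058 and a lowest adjusted p of 1. With limma voom 0 were called at each of the 3 hours. With DESeq2 there were 16 calls at 1 h (1 leaf-expressed), 3 at 6 h (2 leaf-expressed) and 3 at 24 h (0 leaf-expressed). The intervals were wider than for the hours together, 0.60, 0.61 and 0.70 to either side in the median leaf-expressed transcript, and lay within 2-fold for 72.3, 67.9 and 57.8%.

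At 1 h the lower transcript with the smallest p was C399809. It stood at 11.7, 10.2 and 6.19 CPM in CT and at 2.00, 0.913 and 1.75 CPM in PT. The groups did not overlap, and the log2 fold change was -2.60 ± 0.53 (SE; edgeR, unadjusted p = 0.000142, adjusted p = 1). It is the leaf-expressed transcript that DESeq2 called at 1 h, at an adjusted p of 0.00227, while over all settings tried its adjusted p ran from 0.00227 to 1 and DESeq2 alone called it. At 6 h the groups of C399809 overlapped widely, at 16.2, 14.8 and 3.76 CPM in CT and 5.86, 17.7 and 12.4 CPM in PT, and on the scale of all fed and unfed libraries its PC libraries of 1 h ranged from 1.67 to 37.6 CPM. The higher one at 1 h, scaffold19064, stood at 2.83, 1.91 and 1.62 CPM in CT and 4.76, 3.16 and 7.25 CPM in PT, at 1.25 ± 0.33 (SE; edgeR, unadjusted p = 0.00141, adjusted p = 1). Its estimate at 6 h was -0.56 ± 0.34.

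At 6 h C93907 had the smallest p of any leaf-expressed transcript at a single hour among those named. It stood at 4.91, 2.61 and 4.00 CPM in CT and at 1.38, 1.59 and 1.13 CPM in PT, without overlap. Its log2 fold change was -1.49 ± 0.27 (SE; edgeR, unadjusted p = 4.13e-05, adjusted p = 0.887), and it was one of the 2 leaf-expressed transcripts that DESeq2 called at 6 h, at an adjusted p of 0.0382 in a range of 0.0382 to 1 over all settings. C93907 stood at 1.16 and 1.16 CPM in CT and 1.56, 1.93 and 1.52 CPM in PT at 24 h, the opposite order. The higher one, scaffold14180, stood at 1.53, 1.78 and 1.21 CPM in CT and 4.30, 3.35 and 2.66 CPM in PT at 6 h, at 1.19 ± 0.29 (SE; edgeR, unadjusted p = 0.00087, adjusted p = 0.887). The other leaf-expressed transcript of DESeq2 at 6 h, C553167, was chosen after its values were seen, and had 6, 14 and 7 reads in CT and 34, 44 and 17 reads in PT.

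At 24 h C343195 stood at 2.24 and 1.75 CPM in CT and 3.69, 3.52 and 4.19 CPM in PT, a log2 fold change of 0.92 ± 0.24 (SE; edgeR, unadjusted p = 0.00145, adjusted p = 1). At 6 h its libraries overlapped, from 1.51 to 1.90 CPM in CT and from 1.35 to 1.94 CPM in PT. scaffold13679 stood at 2.82 and 2.87 CPM in CT and 1.81, 1.64 and 1.33 CPM in PT at 24 h, at -0.84 ± 0.20 (SE; edgeR, unadjusted p = 0.000774, adjusted p = 1). Its estimates were -0.05 ± 0.18 at 1 h and -0.07 ± 0.19 at 6 h.

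Whether PT differed from CT by another amount at another hour was tested directly, with 0 leaf-expressed transcripts called (0%) and 0 of all 146930 tested (0%) by edgeR, 0 by limma voom and 0 by DESeq2. An unadjusted p of 0.05 or less was reached by 7092, and the lowest edgeR adjusted p was 0.998. C93907 had the smallest p among the leaf-expressed transcripts considered (unadjusted p = 0.000338, adjusted p = 0.998 in edgeR), and its log2 fold change was -0.06 ± 0.26 at 1 h, lower at 6 h (-1.49 ± 0.27) and above 0 at 24 h (0.53 ± 0.31).

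The difference between PT and CT was then set against the same difference in unfed leaves, PC against CC, over 35 libraries. This term called 0 leaf-expressed transcripts (0%) and 0 of all 156137 tested (0%) in edgeR, with 7869 at an unadjusted p of 0.05 or less and a lowest adjusted p of 0.973, and 0 by limma voom. DESeq2 called 58, of which 2 were leaf-expressed. The interval of this term reached 0.50 to either side in the median leaf-expressed transcript and lay within 2-fold for 82.6% of them. C504173 had the smallest p of the terms above 0, 1.51 ± 0.40 (SE; edgeR, unadjusted p = 0.000661, adjusted p = 0.973), made of 0.55 ± 0.30 for PT against CT and -0.92 ± 0.27 for PC against CC. C344341 had the smallest p of those below 0, -0.79 ± 0.19 (SE; edgeR, unadjusted p = 0.000293, adjusted p = 0.973), made of -0.38 ± 0.17 in fed and 0.49 ± 0.13 in unfed leaves. Across the 71158 leaf-expressed transcripts the pooled log2 fold changes of PT against CT and of PC against CC, which share no library, had a Pearson r of -0.202 and a Spearman rho of -0.194; this is a description across transcripts, which are not independent replicates.

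Transcripts that respond to the egg treatment were read in the fed leaves. C leaves were not scraped, so wound and secretion cannot be told apart in these lists either. The lists come from P against C leaves, harvested 1, 6 and 24 h after eggs and sharing no library with PT and CT. Of the 495 transcripts that rose there with the hours together, 213 were leaf-expressed (224 of 71158 were called in either direction, 0.315%). In PT against CT 0 of the 213 were called, 95 were higher and 118 lower, and their median log2 fold change was -0.022, beside -0.021 over all leaf-expressed transcripts, of which 31795 were higher and 39363 lower. The 213 taken hour by hour had medians of 0.22 (1 h), -0.07 (6 h) and -0.24 (24 h), beside -0.03, -0.03 and 0.01 over all leaf-expressed transcripts. The 57 leaf-expressed risers of 1 h after eggs (58 called, 0.0815%) gave 0.17, -0.03 and -0.30. Of the shorter lists, 8 risers of 6 h (0.0112%) had a pooled median of 0.122, 4 risers of 24 h (0.00562%) had 0.243, and 11 fallers of the hours together had 0.019, with 0 called in each.

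Feeding, as the mean over leaves with and without earlier eggs, raised most of these egg risers by 24 h. Among all leaf-expressed transcripts feeding called 2177 at 1 h (3.06%), 4940 at 6 h (6.94%) and 22445 at 24 h (31.5%) in either direction. Of the 213 egg risers, 42.3, 79.3 and 89.2% were risers of feeding at these hours, beside 1.61, 4.03 and 12.8% of all leaf-expressed transcripts, and 0 were fallers at any of them. Relative to the unfed leaves of the same hour, the median of the 213 stood at 0.28, 1.07 and 1.58 log2 units in the CT libraries of 1 h and at 1.99, 0.41 and 1.18 in the PT libraries, so libraries of 1 group differed by more than the groups did. At 6 h it stood at 2.17, 2.04 and 1.46 in CT and 2.16, 1.75 and 1.78 in PT, overlapping. At 24 h CT libraries held 2.68 and 2.56 and PT libraries 2.24, 2.35 and 2.53, all PT libraries below both CT libraries. The gap was only that between 2.53 and 2.56, and the left-out CT library of 24 h was not scored on this list.

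The pace of the feeding response was read in the same way, with lists of feeding chosen at 1 hour and read at another. The contrast that chose a list thus left out the libraries scored on it, but these shared the fit's scaling, filter and spread. The 9073 leaf-expressed risers of feeding at 24 h stood, at 6 h, at 0.40, 0.58 and 0.26 log2 units above the unfed leaves in CT and at 0.44, 0.47 and 0.50 in PT. At 1 h they stood at -0.07, 0.20 and 0.15 in CT and at 0.29, -0.04 and 0.03 in PT. The groups overlapped at both hours, with mean differences of 0.06 at 6 h and 0 at 1 h between PT and CT. The 13372 fallers of 24 h stood at -0.26, -0.42 and -0.22 in CT and -0.43, -0.33 and -0.32 in PT at 6 h, again overlapping.

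The 2871 risers of feeding at 6 h were read at 1 and 24 h. At 1 h they stood at -0.05, 0.43 and 0.39 in CT and at 0.58, 0.09 and 0.27 in PT. At 24 h they stood at 1.35 and 1.26 in CT and 1.10, 0.98 and 1.32 in PT, a mean difference of -0.17 with a spread between libraries of 0.13. The 2069 fallers of 6 h stood at -0.87 and -0.89 in CT and -0.66, -0.64 and -0.86 in PT at 24 h, a mean difference of 0.16 with a spread of 0.09, and all PT libraries lay above both CT libraries. With the third CT library of 24 h included, whose reads lay to 80.3% in 10 transcripts, the mean differences of the same 2871 risers and 2069 fallers were 0.16 and 0.80, and the spread between libraries was 0.42 and 0.80. That library itself stood at 0.31 for the risers and -2.81 for the fallers. The risers thus changed the sign of their mean difference with that library.

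**Figure D5:**
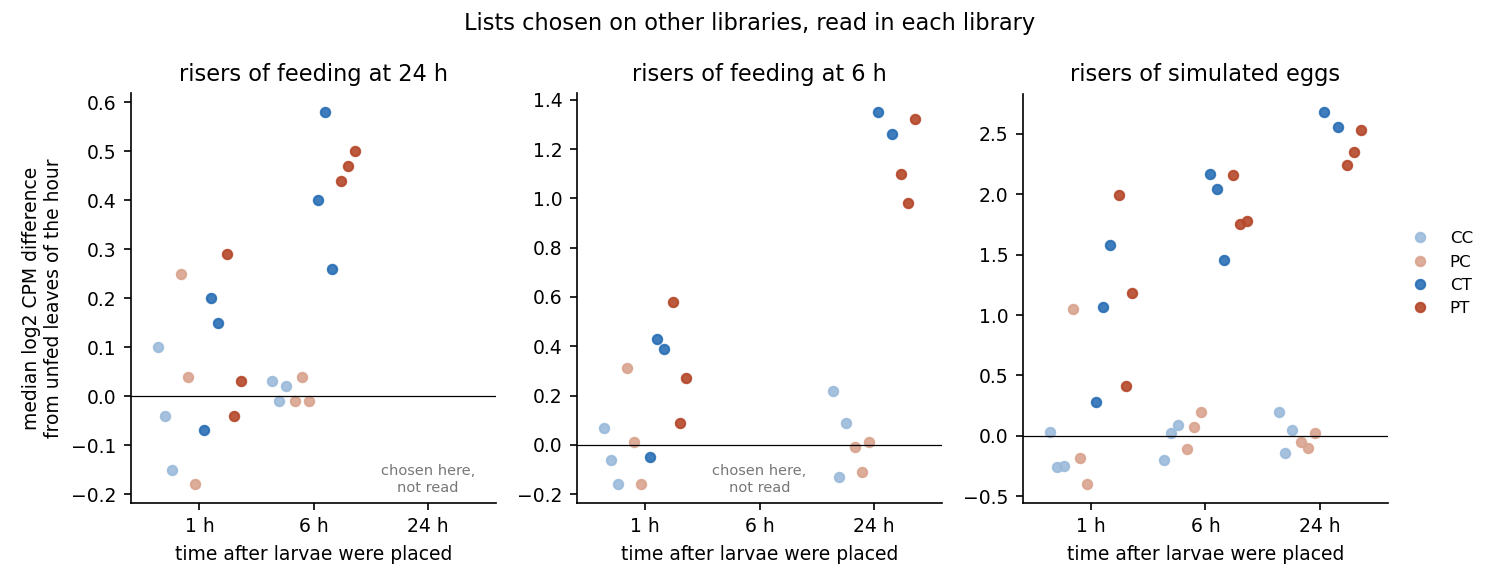
Median log2 CPM difference of each library from the unfed leaves of its hour, over the leaf-expressed risers of feeding at 24 h (left), of feeding at 6 h (middle) and of simulated eggs with the hours together (right); points are libraries of CC, PC, CT and PT. CT and PT libraries lie among each other at 1 and 6 h, and at 24 h the egg risers stand at 2.56 to 2.68 in CT and 2.24 to 2.53 in PT.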

How the data were processed

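The authors' deposited table holds raw counts of reads per assembled transcript, 1 column per library. Per the submitters' processing notes CASAVA and Trimmomatic 0.33 were used; no source used here gives the assembly, aligner or counter, so reads of closely related transcripts, of overlapping or antisense transcripts and of larval RNA on the leaf cannot be told apart. Transcripts passing edgeR's filterByExpr (minimum count 10, total 15) were scaled by TMM and tested with edgeR 4.0.16's quasi-likelihood F-test in R 4.3.3, with Benjamini-Hochberg adjustment over all transcripts tested and calls at an adjusted p of 0.05 or less with no minimum fold. The pooled test had hour as a block; single hours and their difference came from a fit with 1 mean per group, and comparisons with unfed leaves from a fit of 35 libraries. Levels are CPM of the TMM-scaled library size; log2 CPM for lists used a prior count of 2. The SE of a log2 fold change was computed as its absolute value divided by the square root of the test's F. The 95% intervals use this SE and depend on the fit's spread between libraries. Composition was tested by exact permutation within hours. Alternatives were DESeq2 1.42.0, limma 3.58.1 voom with sample weights, other scaling, no filter, leaf-expressed transcripts alone, replicate number as a block, the left-out library included and each library left out. Only the pooled edgeR test was tried on simulated counts, and the permutation test on a small example enumerated by hand. Named transcripts are the 2 highest-ranked by p in each direction for the pooled test, and the first in each direction for the other tests, among leaf-expressed transcripts with a mean log2 CPM of 1 or more in the fit (no minimum level for those not leaf-expressed). No library pair in a group agreed within counting noise (lowest chi-square per degree of freedom 18.6 over 18 pairs). The comparison, the lists and the choice of the left-out library were made with earlier results of these data known.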

Additional observations from a re-analysis of the deposited data

Results flagged for a closer look

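Within PT (9 libraries) or CT (8 libraries, the left-out one apart), 5 of the 36 sets of values examined, 4 composition measures and 14 named transcripts in each treatment, had an end value whose gap to the next exceeded Dixon's limit; chance does this in about 1 in 20 sets, and each set mixes 3 harvest hours. The PT library of replicate 3 at 1 h held the most reads, 86534940. scaffold13894, lower in PT with the hours together, stood at 8.28 CPM in the PT library of replicate 2 at 6 h, apart from the other 8. scaffold14180 stood highest in PT at 7.82 CPM in replicate 3 of 24 h. C504173 stood highest in PT at 5.43 CPM in replicate 3 of 1 h. scaffold19064 stood highest in CT at 5.59 CPM in replicate 2 of 24 h.

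The CT library of replicate 1 at 24 h, which the main comparisons left out, had 2.76% of its reads on transcripts with a median CPM of 0 in untreated leaves. The 18 untreated libraries of C and CC had 0.0207 to 0.109% there, with a median of 0.0294%. Among the 17 fed libraries used, the highest share was 0.639%. Leaves sampled soon after eggs also reached such shares, with 4.04, 2.96 and 2.4% in the P libraries of replicate 1 at 1, 6 and 24 h. The other P libraries held 0.0549 to 0.636%.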

How the results depend on the processing

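The absence of calls for PT against CT held under limma voom, DESeq2 size factors in edgeR, no filter on low counts, leaf-expressed transcripts alone, the fit of all 35 libraries and with the left-out library included. DESeq2 called 2 transcripts with the hours together, 16 at 1 h, 3 at 6 h and 3 at 24 h, and 58 in fed against unfed leaves and 146 in PC against CC. Leaving out 1 library at a time gave 0 to 1 call with the hours together, 0 to 2 at 24 h, 0 to 4 in PC against CC and 0 at 1 h, at 6 h, for the difference between hours and for fed against unfed. The calls came without the CT library of replicate 3 at 24 h (C99816 pooled, scaffold9310 and C354211 at 24 h; C99816 had 116 of its 121 reads in the 1 CT library then left), without the PT library of replicate 2 at 24 h (scaffold22261) and, for PC against CC, without replicate 2 of PC at 6 h (4) and replicates 2 (2) and 3 (1) of PT at 1 h. None was leaf-expressed; the lone CT library is then taken to vary like the other groups.

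Replicate numbers were not taken as pairs in the main tests. Deviations of same-numbered PT and CT libraries correlated at -0.15 to 0.27, and only some exceeded 0.1. These values cannot tell whether libraries of the same number share an origin, which the labels do not say. With the replicate block, 2 transcripts were called with the hours together, 15 at 1 h, 4 at 6 h, 0 at 24 h, 20 for the difference between hours, 4 in PC against CC and 0 in fed against unfed leaves, none leaf-expressed. With the left-out library included, the mean difference at 24 h of the risers of 6 h went from -0.17 to 0.16 and of the fallers from 0.16 to 0.80 with the lists kept as they were (an alternative added after seeing the data), and to 0.08 and 0.43 with lists chosen again with that library (1764 risers in place of 2871, and 659 fallers in place of 2069). Leaf-expressed transcripts at an unadjusted p of 0.05 or less split into 892 higher and 1647 lower with TMM over all transcripts, and into 1349 and 1302 with the scaling over leaf-expressed transcripts alone. The cause of these shifts was not tested. Transcripts that are not leaf-expressed were bounded less well, with 56.7% of intervals within 2-fold. Whether this comes from depth or from the spread between libraries was not tested.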

Other observations

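Some transcripts that only an alternative test called are given here, chosen after their values were seen; the longer lists of calls were not examined one by one. Besides C445555 and C270029, C465881 had 4138 of its 4184 reads (98.9%) and C84088 had 595 of 627 (94.9%) in the PT library of replicate 2 at 6 h. None of these 4 is leaf-expressed, and the PT library of replicate 1 at 6 h, the second highest for the first 3, held 58, 28 and 40 reads of C445555, C270029 and C465881. The 3 transcripts that DESeq2 called at 24 h, C610043, C577341 and scaffold19784, had most of their reads elsewhere, in the CT library of replicate 1 at 6 h (172 of 368, 638 of 1312 and 330 of 784) and the PT library of replicate 2 at 1 h (142, 529 and 379). Among the 17 fed libraries compared, these 2 also had the highest shares of reads on transcripts silent in untreated leaves, 0.639 and 0.613%. The CT library of replicate 2 at 24 h stood close to them at 0.605%, yet held 0 reads of C610043, C577341 and scaffold19784. Whether RNA of another organism takes part was not tested.

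A few transcripts took a large and variable part of the reads of fed libraries, over ranges that overlapped between PT and CT. C615081, leaf-expressed and chosen after its values were seen, took 0.683 to 28.8% of the reads in PT (median 11.8%), 2.95 to 27.1% in CT (median 10.5%) and 1.11 to 13.8% in untreated leaves (median 4.26%). Its pooled log2 fold change of PT against CT was -0.68 ± 0.76 (SE; edgeR, adjusted p = 1). C615507 took 0.44 to 10.7% in PT and 1.69 to 9.88% in CT, at -0.80 ± 0.68 (SE; edgeR, adjusted p = 1). With 3 more, C603045, C601379 and C568107, they took 1.59 to 53.9% of the reads over the 17 fed libraries. Their share varied widely in unfed libraries too, from 1.97% in P replicate 2 at 24 h to 39.5% in P replicate 3 at 6 h.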
